A study of Mus musculus with 11 samples.

Results

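Lhx6-positive interneurons of the medial ganglionic eminence (MGE) are described here in mouse dorsal telencephalon at E14.5 (embryonic day). The cells were selected on their own RNA: a barcode was kept if it held 1000 or more genes and no more than 10% of its UMIs (unique molecular identifiers, 1 per captured RNA molecule) were mitochondrial, and a kept barcode was a member with at least 3 UMIs summed over Dlx1, Dlx2, Dlx5 and Dlx6os1, at least 1 of Lhx6, at most 1 of Adarb2 and at most 2 of Top2a plus Mki67. This gave 1048 of 16335 kept barcodes, 444 of 7554 in the WT library and 604 of 8781 in the cKO library. Lhx6, the Dlx genes, Adarb2, Top2a and Mki67 chose the cells, so their levels are a description only. The members are called Lhx6 cells below.

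The study asked how the RNA-binding protein Syncrip acts in neural progenitors of the neocortex. Dorsal cortical tissue came from 1 wild-type (WT) embryo and 1 conditional knockout (cKO) embryo of the same litter, and each gave 1 droplet-based 3′ single-cell library. The cKO embryo carried loxP-flanked Syncrip alleles and Emx1-Cre, a Cre active in dorsal telencephalic progenitors. With 1 embryo per genotype there was no replicate, no test of genotype was possible and the intervals below cover counting error only. Genotype, embryo, sex and dissection cannot be told apart: the WT library held 0 Xist UMIs and 1129 UMIs of 4 Y-linked genes, and the cKO library held 6999 and 6.

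Cortical interneurons that express Lhx6 are born outside the cortex, in the MGE, where the homeobox factor Nkx2-1 switches Lhx6 on, and they then migrate tangentially into the cortical wall. They use gamma-aminobutyric acid (GABA) as transmitter, and most later become somatostatin (Sst) or parvalbumin (Pvalb) interneurons. A second stream, from the caudal ganglionic eminence (CGE), is marked by Adarb2, Prox1 and Nr2f2. Both streams are known to arise outside the Emx1-Cre lineage, and excitatory neurons within it. Recombination was not measured in these cells.

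The Lhx6 cells had a median of 8768.5 UMIs and 3415.5 genes in the WT library, and of 8180.5 UMIs and 3320 genes in the cKO library. Their UMIs summed to 4397597 and 5715146. All kept barcodes of the 2 libraries summed to 99182102 and 110223059 UMIs. The libraries shared 22 barcode sequences, and 0 of these were Lhx6 cells in both. Levels below are in CPM, the UMIs of a gene scaled to the same total in each class of cells and library (counts per 10 to the power of 6), given as WT and then cKO.

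The cells just inside and just outside each limit are given by Nxph1, which the rule did not use. A single Lhx6 UMI was the basis of membership in 100 WT and 176 cKO cells, and these held Nxph1 at 2385 and 2689 CPM. The 247 WT and 349 cKO cells that passed every other limit but had no Lhx6 UMI held Nxph1 at 529 and 748 CPM. The 23 cells per library with Lhx6 and a Dlx sum of 2, just outside the rule, held Nxph1 at 2167 and 2074 CPM, near the 2585 and 2673 CPM of the 25 and 15 members with a sum of 3. At the Adarb2 limit, Nxph1 was at 3034 and 2369 CPM in the 15 and 33 members with 1 UMI and at 3423 and 2390 CPM in the 5 and 12 cells with 2. At the Top2a plus Mki67 limit it was at 1896 and 2365 CPM in the 5 and 7 members with 2 UMIs, and at 34.8 and 1245 CPM in the 1 and 5 cells with 3. Of 614 WT and 849 cKO kept barcodes with an Lhx6 UMI, 140 and 193 were left out for a Dlx sum under 3, and a further 21 and 31 for Adarb2.

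The label of an MGE interneuron held on its markers. Nxph1, a secreted ligand of neurexins, stood at 2569 and 2602 CPM in Lhx6 cells, and at 26.4 and 112 CPM in Adarb2 cells, which were chosen by Adarb2 without Lhx6. The Adarb2 cells also held RNA of striatal neurons, with the striatal list at 7647 and 5938 CPM against 1080 and 1076 CPM in Lhx6 cells, and Ebf1, Isl1, Six3, Six3os1 and Rarb among the 10 genes with the highest ratio over Lhx6 cells. They are therefore named by their rule and not as CGE interneurons. Maf, a transcription factor of MGE interneurons, was at 863 and 973 CPM against 73.5 and 76.8 CPM. Erbb4, the neuregulin receptor that guides these neurons, was at 7816 and 7578 CPM against 3657 and 3912 CPM, and at 12.1 and 23.8 CPM in excitatory neurons. The neuropeptide genes Sst, at 590 and 953 CPM, and Npy, at 260 and 336 CPM, were at 6.17 CPM or less in Adarb2 cells apart from Sst at 44.9 CPM in the cKO library. There, 135 UMIs of Sst lay in 9 of 330 Adarb2 cells, with 124 of them in 1 cell. In the mouse genome GRCm38 with GENCODE M21 genes, Lhx6 lies at chr2:36081953-36105408 on the minus strand, Nxph1 at chr6:8948431-9249032 on the plus strand, Sst at chr16:23889573-23890958 on the minus strand and Npy at chr6:49822710-49829507 on the plus strand.

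GABAergic identity was shared with the other Dlx-positive cells. Gad1, which makes GABA, was at 258 and 264 CPM in Lhx6 cells and at 253 and 248 CPM in Adarb2 cells, and its partner Gad2 was at 576 and 574 CPM against 736 and 680 CPM. Both were at 5.04 CPM or less in excitatory neurons. The chloride importer Slc12a2 stood at 32.3 and 24.7 CPM and the exporter Slc12a5, which arrives as neurons mature, at 10.9 and 9.62 CPM.

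The regulators that act beside or below Lhx6 were present. Sox6 was at 946 and 949 CPM, Satb1 at 371 and 305 CPM, Cux2 at 577 and 499.6 CPM and Mef2c at 981 and 976 CPM. Each was lower in Adarb2 cells of the same library, where Mef2c was at 191 and 221 CPM. Sp9, on the same list, went the other way. Its log2 ratios of Lhx6 over Adarb2 cells were −0.73 and −0.14, under the 2-fold limit. Nkx2-1 was nearly absent, at 1.14 and 1.05 CPM, and Lhx8, which marks cells bound for subpallial nuclei, had 0 UMIs in WT and 0.35 CPM in cKO Lhx6 cells. Chat, Slc18a3, Slc5a7 and Gbx2, markers of cholinergic neurons, were at 0 in both libraries. Pvalb and the CGE peptide gene Vip were also at 0.

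**Figure D1:**
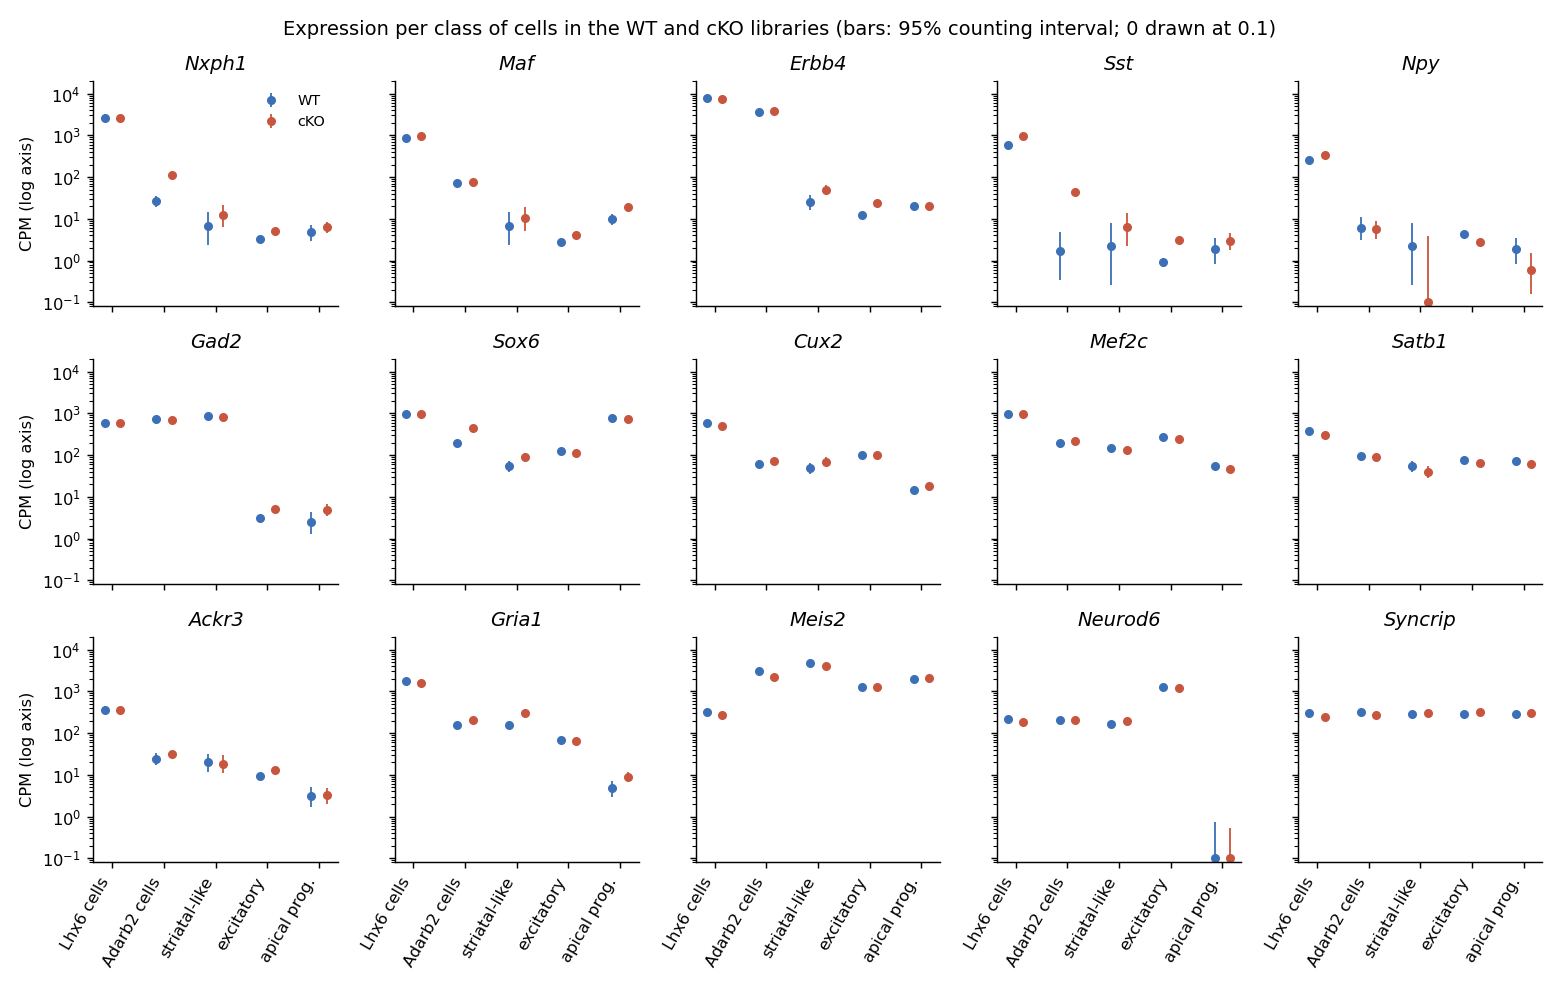
CPM (log axis) of 15 genes in 5 classes of cells, in the WT and cKO libraries, with 95% Poisson counting intervals and values of 0 drawn at 0.1. Nxph1, Maf, Sst and Npy stand highest in Lhx6 cells, Gad2 is at a like level in the 3 Dlx-positive classes, and Syncrip lies between 241 and 322 CPM in every class.

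Against Adarb2 cells of the same library, 145 of 7948 genes were at least 2-fold higher in Lhx6 cells in both libraries (1.82%) and 164 were at least 2-fold lower (2.06%). These counts carry no test, because the classes were cut from the same cells by their RNA. Beside Nxph1, Sst and Npy, the genes with the highest ratios included Nxph2, a paralogue of Nxph1, at 158 and 164 CPM against 1.68 and 3.33 CPM. Cacng3, an auxiliary subunit of AMPA receptors, was also among them, at 85.05 and 69.3 CPM against 0.56 and 2.66 CPM. Thbs1, a secreted thrombospondin, was at 54.6 and 51.8 CPM against 0.56 and 1.33 CPM, and the homeobox gene Mkx was at 42.5 and 24.8 CPM against 0 and 0.33 CPM. Dpp10, which modulates potassium channels, was 31.7 and 15.8-fold higher and the adhesion gene Cntnap3 21.5 and 12.7-fold higher. Dlgap1, a postsynaptic scaffold gene, was at 2326 and 2289 CPM against 129 and 153 CPM. Compared with all other kept cells, Ism1, Dgkg, Elfn1 and Maf joined these genes among the 10 with the highest ratios, with Dgkg, a diacylglycerol kinase gene, 55.0 and 45.7-fold higher.

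Of 15 transmitter receptor genes compared, 4 were at least 2-fold higher in Lhx6 cells and 0 lower. Over all 7948 genes, 1.82% were higher and 2.06% lower. The median log2 ratio over the list was 0.40 and 0.22. Gria1, an AMPA receptor subunit, was at 1735 and 1583 CPM in Lhx6 cells against 153 and 204 CPM in Adarb2 cells, and Gria4 at 1711 and 1925 CPM against 187 and 263 CPM. The kainate receptor genes Grik1, at 362 and 323 CPM against 29.2 and 50.9 CPM, and Grik2, at 1293 and 1187 CPM against 329 and 439 CPM, followed the same order. These are the 4 genes that passed, and others did not, such as Grin1, an NMDA receptor subunit gene, at log2 ratios of 0.68 and 0.33. Of the 10 compared genes on the list of transcription factors downstream of or beside Lhx6, 6 were higher and 0 lower.

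Migration receptors were divided. Of 16 genes, 3 were at least 2-fold higher and 3 lower than in Adarb2 cells, against 1.82% and 2.06% of all 7948 genes. Ackr3, the scavenger receptor for the chemokine that guides interneurons, was at 355 and 350 CPM against 24.1 and 30.9 CPM, and its partner Cxcr4 was at 29.3 and 33.4 CPM against 7.30 and 8.98 CPM. Robo1, a receptor for Slit, was lower, at 172 and 166 CPM against 592 and 826 CPM.

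Genes of the lateral ganglionic eminence and striatum were low in Lhx6 cells. Of 10 striatal list genes, 9 were at least 2-fold lower and 0 higher, against 2.06% and 1.82% of all 7948 genes. Ebf1, a factor of striatal projection neurons, was at 6.14 and 5.77 CPM in Lhx6 cells and 921 and 695 CPM in Adarb2 cells. It was at 1464 and 1824 CPM in striatal-like cells, whose rule used Ebf1, so that level is a description only. Isl1, Six3 and Rarb followed the same order of Lhx6 cells below Adarb2 cells. Meis2 was at 318 and 273 CPM against 3121 and 2160 CPM. Of 5 genes of the CGE interneuron list, 3 were at least 2-fold lower than in Adarb2 cells and 1 was higher, Cck, a peptide gene, at 68.7 and 75.6 CPM against 11.2 and 8.98 CPM. Sp8, a factor of CGE interneurons, was at 1.14 and 0.17 CPM in Lhx6 cells and at 80.8 and 78.2 CPM in Adarb2 cells, and Nr2f2 was at 36.4 and 60.2 CPM against 272 and 346 CPM.

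RNA of excitatory neurons was present in the Lhx6 cells. The 10 genes of the excitatory list summed to 578 and 497 CPM in Lhx6 cells, against 3269 and 3157 CPM in excitatory neurons, and Neurod6 was the most abundant in both libraries. After each cell was thinned to 5000 UMIs, a Neurod6 UMI was seen in 24.4% and 26.2% of Lhx6 cells, 25.3% and 32.1% of Adarb2 cells and 27.3% and 35.2% of striatal-like cells, against 98.2% and 97.1% of excitatory neurons. The excitatory neurons were chosen by Neurod2 and Neurod6, so their share with Neurod6 and their list sum are a description only. The median depth before thinning was 8609 and 7955 UMIs in Adarb2 cells and 13073 and 12349 UMIs in excitatory neurons. At least 3 UMIs of Neurod2 plus Neurod6 were held by 52 WT (11.7%) and 68 cKO (11.3%) Lhx6 cells, with a median of 21107 and 19202 UMIs against 8366 and 7907.5 UMIs in the others, and 34 and 45 of them were called doublets. In all, 42 (9.46%) and 50 (8.28%) Lhx6 cells were called doublets. Red blood cell genes summed to 94.8 and 253 CPM, against 243 and 430 CPM in excitatory neurons. Apical progenitor genes summed to 372 and 415 CPM and cycling genes to 167 and 177 CPM, against 6971 and 7317 CPM and 3951 and 4523 CPM in apical progenitors. Pax6, Sox2, Hes5 and Vim chose the apical progenitors, and the rule limited Top2a plus Mki67 in Lhx6 cells. The progenitor and cycling sums are therefore a description only. Endothelial and mural genes summed to 4.32 and 4.55 CPM and microglial genes to 7.73 and 12.4 CPM. Genes of meningeal fibroblasts summed to 10.0 and 0.70 CPM. The part of the red blood cell, progenitor, endothelial, microglial and meningeal RNAs in the ratios between libraries was not tested.

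The Lhx6 cells were 5.88% of kept barcodes in WT (95% Clopper-Pearson interval 5.36 to 6.43%) and 6.88% in cKO (6.36 to 7.43%), a ratio of 1.17 (1.03 to 1.33). Of the Dlx-positive postmitotic cells they were 49.7% (46.3 to 53.0%) and 46.0% (43.2 to 48.7%). Adarb2 cells were 2.41% and 3.76% of kept barcodes, so that there were 2.44 Lhx6 cells per Adarb2 cell in WT and 1.83 in cKO. All Dlx-positive postmitotic cells together were 11.8% and 14.96% of kept barcodes, and genotype and dissection cannot be told apart in these shares.

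Among themselves the Lhx6 cells varied most in Sst. Thinned to 5000 UMIs, with 401 WT and 554 cKO cells deep enough, Sst was detected in 37.2% of WT (32.4 to 42.1%) and 42.6% of cKO cells (38.4 to 46.8%), against 0.32% and 1.66% of excitatory neurons. Its count ran from 0 to 81 UMIs per cell in WT and from 0 to 101 in cKO, with a median of 0 in both. The tenth of cells with the most Sst held 73.6% and 68.6% of its UMIs. The Fano factor, the variance over the mean, was 24.8 and 25.7 for Sst and 12.02 and 10.7 for Npy, both among the 15 highest of all genes.

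Nxph1, Maf, Erbb4 and Ackr3 were detected in more of the cells than Sst, and Cxcr4 and Npy in fewer. Nxph1 was detected in 97.3% and 98.0% of the thinned Lhx6 cells with medians of 12 and 11 UMIs, Maf in 93.0% and 95.8% with medians of 4 and 5, and Erbb4 in 98.8% and 99.1% with medians of 38 and 35. Their levels still varied, and the Fano factor was 12.9 and 12.8 for Erbb4 and 7.86 and 7.40 for Nxph1, both also among the 15 highest. Ackr3 was detected in 76.1% and 78.9% and Cxcr4 in 13.7% and 17.5%. The Fano factor of Nrg1, a ligand of Erbb4, was 18.7 and 11.8, but 5.55 and 3.49 without the cells that held 3 or more UMIs of Neurod2 plus Neurod6, whereas that of Sst was 23.8 and 29.9 without them.

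**Figure D2:**
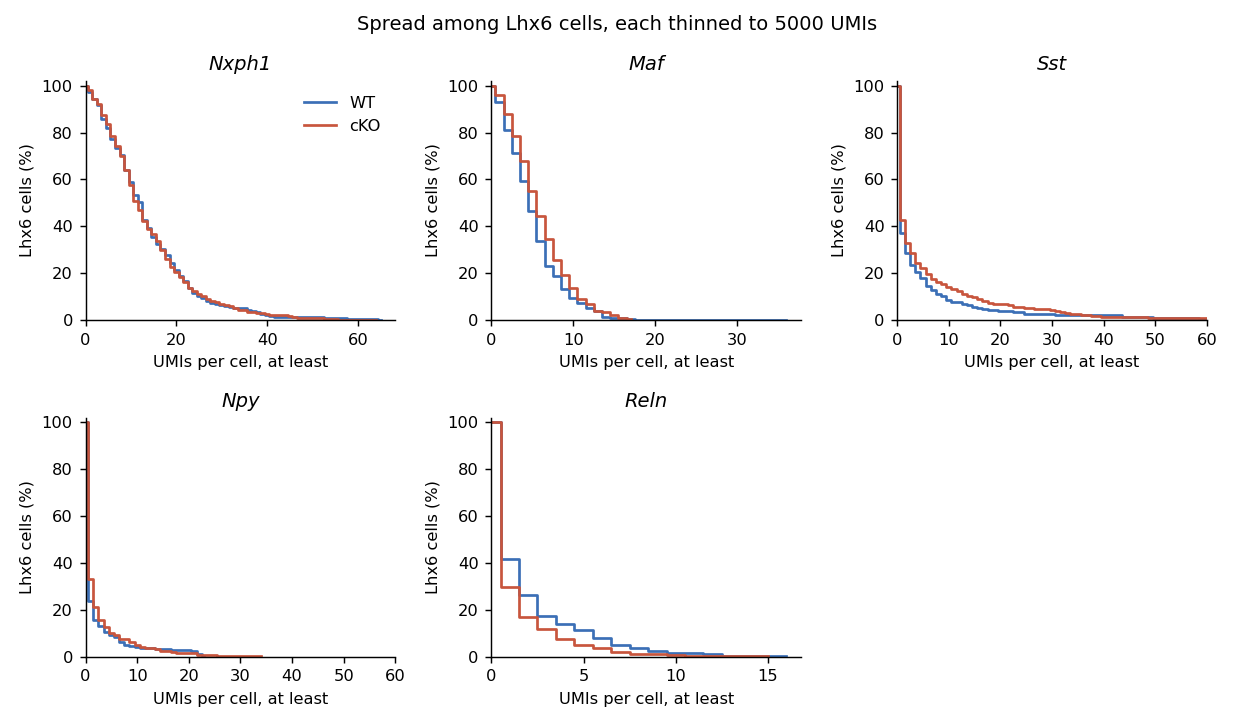
Percent of Lhx6 cells (y axis) with at least the number of UMIs on the x axis, for 5 genes after thinning each cell to 5000 UMIs, in 401 WT and 554 cKO cells. Nxph1 and Maf decline gradually through nearly all cells, while Sst and Npy drop at the first UMI and carry a long tail, and the WT curve lies above the cKO curve for Reln.

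Sst-positive cells carried other genes with them. A UMI of Sst was held by 171 WT and 271 cKO Lhx6 cells, with a median of 9293 and 9114 UMIs against 8437 and 7648 UMIs in the 273 and 333 cells without, so that detection also followed depth. In thinned cells, Npy was detected in 66 of 149 Sst-positive WT cells (44.3%, 36.2 to 52.7%) and 30 of 252 Sst-negative WT cells (11.9%, 8.18 to 16.6%). In cKO it was detected in 106 of 236 (44.9%, 38.5 to 51.5%) and 77 of 318 (24.2%, 19.6 to 29.3%).

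The level of several genes differed with Sst in the same direction in both libraries. Npy was at 554 CPM with and 52.7 CPM without Sst in WT, and at 565 and 110 CPM in cKO. Reln, the secreted signal of Cajal-Retzius cells and of some interneurons, was at 462 and 126 CPM in WT and at 270 and 80.7 CPM in cKO. Grik1 was at 550 and 229 CPM in WT and at 457 and 192 CPM in cKO, Satb1 at 504 and 277 CPM and at 382 and 230 CPM, and the transcription factor Npas1 at 147 and 46.5 CPM and at 67.3 and 24.7 CPM. Erbb4 went the other way, at 6752 CPM with and 8565 CPM without Sst in WT and at 6504 and 8638 CPM in cKO. Nxph1 was at 2546 and 2586 CPM in WT and at 2662 and 2543 CPM in cKO. The genes with the highest ratios were Prkcq, a protein kinase C gene, Nebl, Npy, Trhde, Prkg1, Klf5, Grin3a, a subunit of NMDA receptors, and Col19a1. Prkcq was at 35.8 CPM with and 1.55 CPM without Sst in WT, and at 29.2 and 3.82 CPM in cKO.

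**Figure D3:**
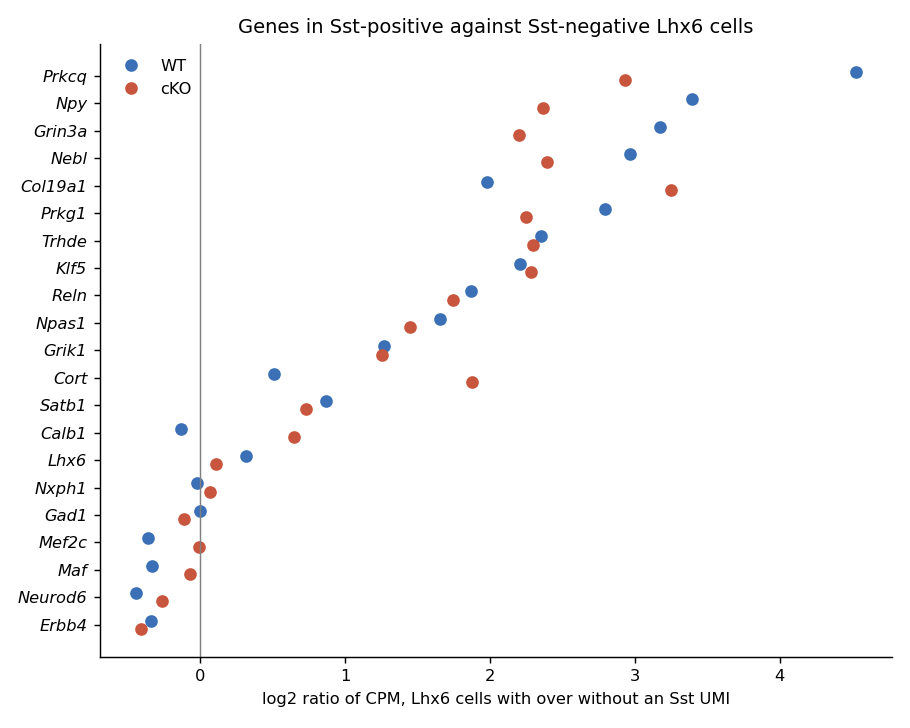
Log2 ratio of CPM in Lhx6 cells with an Sst UMI over those without (x axis), for the 8 genes with the highest ratios and 13 further genes from the lists, in the WT and cKO libraries. Prkcq and Npy lie far to the right, Nxph1 and Gad1 near 0 and Erbb4 to the left in both libraries.

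Between the 2 libraries most genes of the Lhx6 cells lay close together. Of 6797 genes with at least 200 UMIs, 30 were at least 1.5-fold higher in the cKO library (0.441%) and 36 at least 1.5-fold lower (0.53%). The log2 ratio of cKO over WT was 0.02 for Nxph1 (−0.02 to 0.05), −0.04 for Erbb4 (−0.07 to −0.02), 0.01 for Sox6 (−0.05 to 0.06) and 0.03 for Gad1 (−0.08 to 0.15). Of the 5 MGE markers compared, Sst was past the fold and 0 were lower, with a median log2 ratio of 0.17 against −0.00293 over all genes compared. Of the 9 compared genes on the list of transcription factors downstream of or beside Lhx6, 0 passed the fold in either direction. Factors outside that list did, with Npas1 and Tshz3 lower and Nr2f2 higher, at 36.4 and 60.2 CPM. Pou3f2 was also lower, but was under the fold, at −0.40, without the cells that held excitatory RNA. Npas1 and Tshz3 were past the fold without these cells, at −0.92 and −1.07. The ratio of Nr2f2 without these cells was not examined. Of 7 GABAergic genes, Dlx6 was higher and 0 were lower, and of 16 migration genes, Nrp2 was higher and 0 were lower.

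Neuropeptide and subtype genes differed in both directions. Of 5 with enough UMIs, Sst and the calcium-binding protein gene Calb1 were past 1.5-fold higher and Reln was past 1.5-fold lower. Over all 6797 genes, 0.441% were past the fold higher and 0.53% lower. Calb1 had only 92 and 201 UMIs. Its log2 ratio was 1.12 (0.57 to 1.69) in Sst-positive cells and 0.34 (−0.17 to 0.86) in Sst-negative cells. Sst was at 590 and 953 CPM, a log2 ratio of 0.69 (0.63 to 0.76), and of 0.59 when each cell was weighted equally. A single cKO cell held 467 of the 5447 Sst UMIs of that library, and the highest WT cell held 154 of 2593. Within Sst-positive cells alone Sst was at 1428 and 1919 CPM, a log2 ratio of 0.43 (0.36 to 0.49). These cells were chosen by Sst itself, so this ratio is a description only. Npy was at 260 and 336 CPM, a ratio of 0.37 (0.26 to 0.48). In Sst-positive cells its ratio was 0.03 (−0.09 to 0.14), and in Sst-negative cells it was 1.06 (0.76 to 1.36), at 52.7 and 110 CPM. The difference between these strata was not tested.

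Reln stood at 265 and 175 CPM in Lhx6 cells, a log2 ratio of −0.60 (−0.72 to −0.48), and was detected in 41.6% and 29.8% of thinned cells. Its ratio was −0.77 in Sst-positive and −0.65 in Sst-negative cells. In Adarb2 cells Reln was at 130 and 132 CPM, and in excitatory neurons at 31.4 and 45.7 CPM.

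Of the 8 genes with the lowest ratios of cKO over WT, 6 were past 1.5-fold lower with and without the cells that held excitatory RNA, namely Npas1, Ndn, Tshz3, Wscd1, Kctd12 and Ptprk. Npas1 was at 87.8 and 45.8 CPM, a log2 ratio of −0.94 (−1.17 to −0.71), and at 62.9 and 28.9 CPM in Adarb2 cells. The imprinted gene Ndn was at 159 and 80.3 CPM, a ratio of −0.99 (−1.16 to −0.82), and its ratio was −0.95 in Adarb2 cells and −0.33 in excitatory neurons. The zinc finger gene Tshz3 was at 236 and 130 CPM in Lhx6 cells, a ratio of −0.86, against 117 and 119 CPM in excitatory neurons. Wscd1 was at 32.3 and 16.1 CPM and Kctd12, an auxiliary subunit of GABA-B receptors, at 44.1 and 23.4 CPM. Without the cells with excitatory RNA the ratios of these 5 genes lay between −1.09 and −0.92.

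The UMIs of Pou3f2, Ust and Ptprk, the 3 genes with the lowest ratios, lay mostly in the few cells with excitatory RNA. These cells held 24.7% of all UMIs of the WT Lhx6 cells and 22.6% of those of the cKO, but 75.3% and 56.7% of Pou3f2, 80.5% and 70.8% of Ust and 87.0% and 81.3% of Ptprk. The log2 ratios were −1.17, −1.12 and −1.12 in all Lhx6 cells and −0.40 (−0.91 to 0.11), −0.58 (−1.40 to 0.24) and −0.64 (−1.16 to −0.12) without them. That of Ust was 0.0266 without doublets.

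The genes higher in cKO divided in the same way. Xist not counted, Mthfd1l, a mitochondrial enzyme of folate metabolism, had the highest ratio. It was at 12.3 and 49.2 CPM, a log2 ratio of 2.00 (1.58 to 2.45). Of its 281 UMIs in cKO Lhx6 cells 73.3% lay in those with excitatory RNA, 49 UMIs in 1 cell, and without them the ratio was 0.42 (−0.15 to 0.999). In excitatory neurons it was at 70.3 and 180 CPM. Adamts18 held 72.4% and 75% of its UMIs in such cells, and its ratio was 0.97 with and 0.79 (−0.09 to 1.74) without them. Bc1, a small noncoding RNA of dendrites, was at 15.2 and 36.4 CPM, a ratio of 1.26 (0.85 to 1.68), and its ratio was 1.33 without these cells, 1.88 in Adarb2 cells and 1.24 in excitatory neurons. Gabra2, a subunit of GABA-A receptors, was at 48.0 and 90.1 CPM, a ratio of 0.91 (0.68 to 1.15), and of 0.69 (0.41 to 0.98) without these cells. In excitatory neurons Gabra2 was at 93.7 and 88.8 CPM. Nrp2, a semaphorin receptor, was at 24.6 and 43.4 CPM, and its ratio was 0.82 with and 0.67 without these cells. Cntn5, Tshz2 and Lrp1b had ratios of 0.79, 0.77 and 0.76, and of 1.39, 0.48 and 0.57 without these cells, so that Tshz2 and Lrp1b were then under 1.5-fold. Lrp1b held 55.1% and 59.6% of its UMIs in them, 63 UMIs in 1 cKO cell, and Tshz2 had a ratio of 0.11 when each cell was weighted equally. Of the 30 genes higher and 36 lower in cKO, 20 and 21 were past 1.5-fold without the cells with excitatory RNA. Over the same 6797 genes, 45 were then past the fold higher and 48 lower, and 22 and 32 among the genes that still had at least 200 UMIs.

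**Figure D4:**
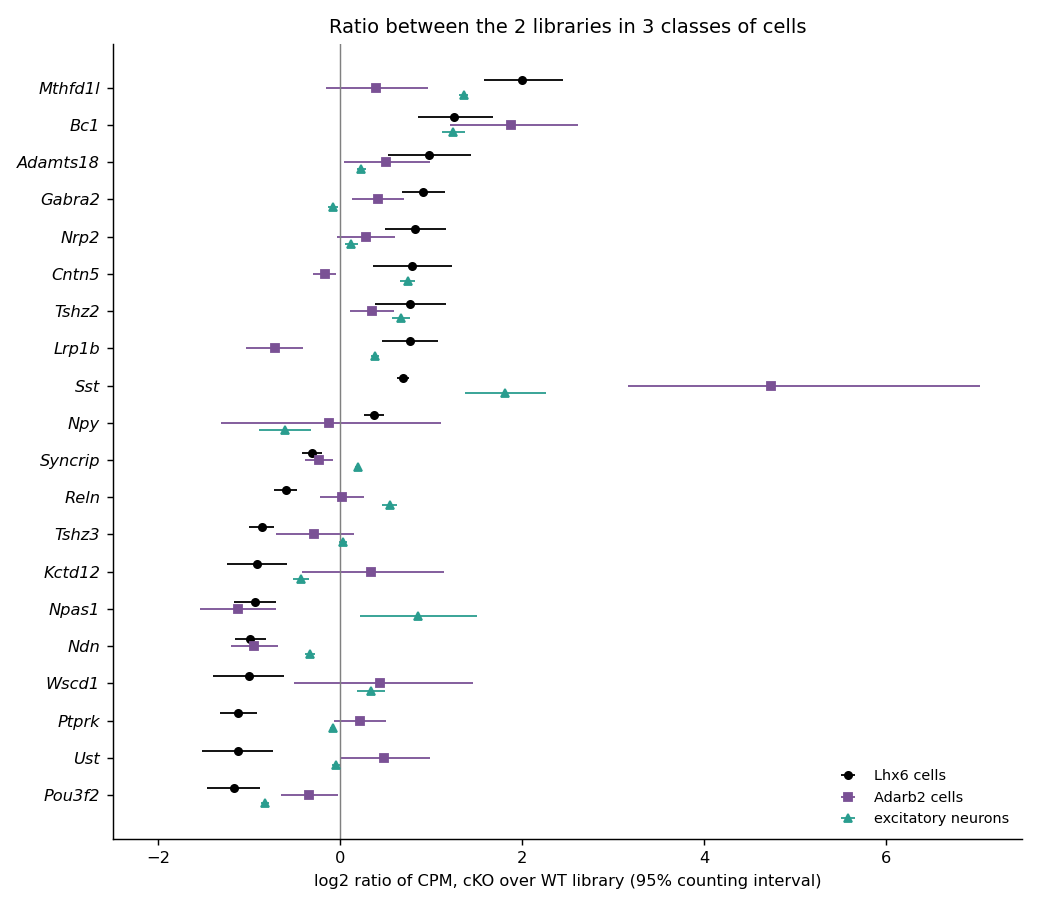
Log2 ratio of CPM, cKO over WT library (x axis, with 95% counting intervals), in Lhx6 cells, Adarb2 cells and excitatory neurons. The genes are the 8 with the highest ratios in Lhx6 cells, Xist not counted, the 8 with the lowest, and Sst, Npy, Syncrip and Reln. Bc1 lies to the right of 0 in all 3 classes, Ndn lies to the left in all 3, and Gabra2 and Tshz3 lie near 0 in excitatory neurons.

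**Figure D5:**
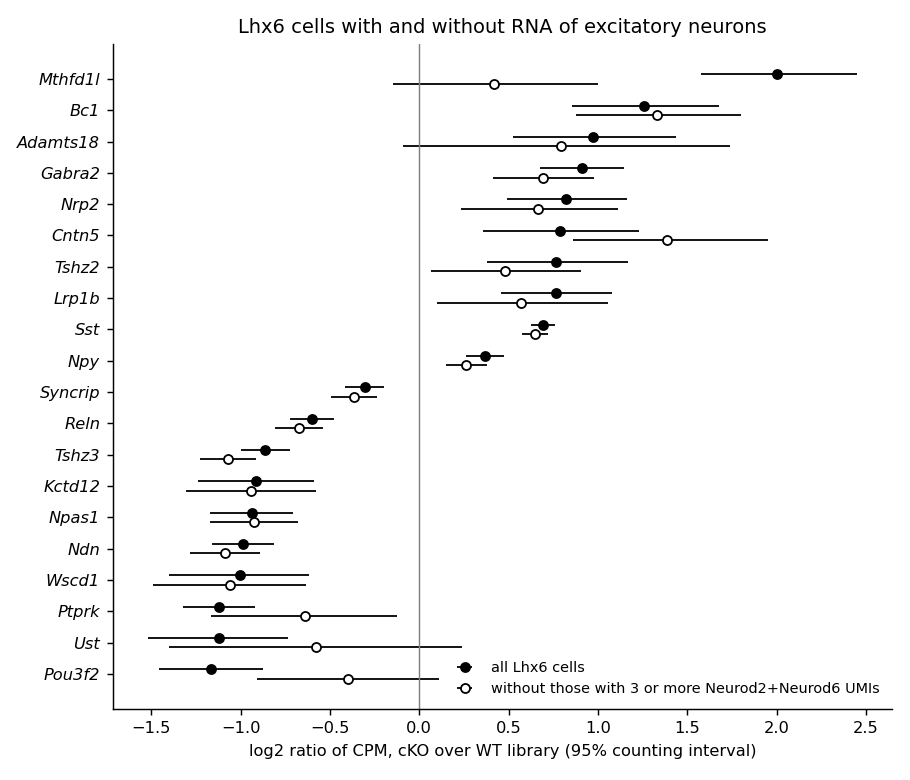
Log2 ratio of CPM, cKO over WT library (x axis, with 95% counting intervals), in all Lhx6 cells (filled) and without those with 3 or more UMIs of Neurod2 plus Neurod6 (open), for the same 20 genes. Mthfd1l is at 2.00 with and 0.42 without these cells and Pou3f2 at −1.17 and −0.40, while the intervals of Sst, Reln, Npas1 and Tshz3 stay away from 0.

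Syncrip itself stood at 298 and 241 CPM in Lhx6 cells, a log2 ratio of −0.31 (−0.42 to −0.20). In Adarb2 cells it was at 317 and 270 CPM, in striatal-like cells at 295 and 298 CPM, in excitatory neurons at 282 and 322 CPM and in apical progenitors at 291 and 306 CPM. The counts hold no positions of reads within Syncrip, so they do not check the deletion. Of the 15 tested genes on the list of Syncrip and genes the study names, 0 were past 1.5-fold in either direction in Lhx6 cells. Their median log2 ratio was −0.15. Over all 6797 genes, 0.441% were past the fold higher and 0.53% lower, so this count does not set the list apart. Epha5, an ephrin receptor gene, was at 2452 and 3465 CPM, a ratio of 0.50 (0.46 to 0.53) under the 1.5-fold limit, and its ratio was 0.80 in Adarb2 cells and 0.37 in excitatory neurons.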

How the data were processed

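For both single-cell libraries the deposited values are UMI counts, not normalized, which the authors made with Cell Ranger 7.0.0 per the file headers. Genome build, annotation and treatment of intronic reads: not given in the sources used here. Bulk RNA-seq and crosslinking files hold no single cells and were not used here. Deposited barcodes numbered 8289 (WT) and 9659 (cKO). Both numbers are above the count of recovered cells given in the study's methods, also after the limits on genes and mitochondrial UMIs, so shares are of barcodes and the part of doublets or free RNA in them beyond the doublet calls was not tested. The members and lists were chosen with earlier results of these data known. Adarb2 cells had a Dlx sum of at least 3, no Lhx6 and at least 2 Adarb2 UMIs, striatal-like cells had at least 3 UMIs of Six3, Isl1 and Ebf1 with at most 1 of Adarb2, excitatory neurons had no Dlx or Lhx6 UMI and at least 3 of Neurod2 plus Neurod6, and apical progenitors at least 10 of Pax6, Sox2, Hes5 and Vim without Dlx, Neurod2 or Neurod6. Doublets were called with Scrublet (scanpy 1.11.5) and kept. UMIs were summed per class and library in Python 3.11.15. Intervals are 95% exact (Poisson, Clopper-Pearson, conditional for ratios) and cover counting error only. Those of UMI levels and their ratios leave out the spread among cells. Only the ratio interval was tested on simulated data, which were Poisson counts without such spread. Cells were thinned to 5000 UMIs for shares, leaving out 43 WT and 50 cKO members. Genes were named by rank of ratio or Fano factor, and from the lists. Xist and Y-linked genes were not among the genes named by ratio. The genes with the highest ratio in Sst-positive cells needed at least 50 UMIs there. The ratios within Sst strata were added after the data were seen.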

Additional observations from a re-analysis of the deposited data

How the results depend on the processing

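The share of Lhx6 cells was 4.55% in WT and 4.87% in cKO with at least 2 Lhx6 UMIs, 5.19% and 6.10% without members with excitatory RNA, and 4.45% and 5.42% when each barcode was thinned before the rule. It was 5.14% in WT with a Dlx sum of at least 5 and 6.25% in cKO with no Top2a or Mki67 UMI. The ratio of the shares moved by less than its interval under the 9 alternatives. Genes past 1.5-fold between libraries numbered 78 higher and 94 lower with at least 100 UMIs, 6 and 15 with at least 500, and 23 lower with at least 2 Lhx6 UMIs. With cells thinned to fewer UMIs than in the main analysis, Sst was detected in 30.7% of WT and 36.0% of cKO cells and Npy in 27.3% of cKO cells. The log2 ratio of Ust reversed to 0.0266 without doublets. No paired analysis was possible because the single-cell experiment has 1 library per genotype. The cause of these changes was not tested. With 1 library per genotype, no interval covers the spread between embryos.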
